A study of Mus musculus with 4 samples.

Results

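The 10 genes described here encode the 3 D-type cyclins (Ccnd1, Ccnd2 and Ccnd3), the kinases they activate (Cdk4 and Cdk6) and 5 inhibitors of cyclin-dependent kinases other than p21 (Cdkn1b, Cdkn1c, Cdkn2a, Cdkn2c and Cdkn2d). They were taken by symbol from the 32285 genes of the count matrices, and all 10 were found there. Single-cell 3′ RNA sequencing had been run on the rostral neocortex of mouse embryos at E15.5, in 2 i4F-Nes libraries and 2 control (CTR) libraries. The i4F-Nes embryos carried the genotype Nestin-Cre;i4F;ROSA-STOP-rtTA, in which Cre recombinase, driven by the nervous-system Nestin promoter, switches on the rtTA transactivator, and rtTA with doxycycline switches on the inducible 4 reprogramming (Yamanaka) factors, of which Myc is 1. The CTR embryos were littermates that carried i4F and ROSA-STOP-rtTA without Cre. Both groups were exposed to doxycycline at 0.2 mg/ml through the drinking water of the pregnant dams during 4 days (E10.5 until E14.5), so doxycycline exposure and the i4F allele were shared by all 4 libraries. The labels do not say how many embryos went into a library, and p-values for i4F-Nes against CTR therefore measure the spread between these 4 libraries. Those between kinds of cells, fitted with library as a block, measure how far such differences varied from library to library.

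D-type cyclins accumulate when growth signals reach a cell, bind Cdk4 or Cdk6, and start the phosphorylation of the retinoblastoma protein that releases E2F transcription factors and opens the way from G1 into S phase. Inhibitors of the INK4 family (p16 from Cdkn2a, p18 from Cdkn2c, p19 from Cdkn2d) bind Cdk4 and Cdk6 themselves, while those of the CIP/KIP family (p27 from Cdkn1b, p57 from Cdkn1c) bind whole cyclin-kinase complexes. In the embryonic cortex, radial glia divide next to the ventricle, intermediate progenitors divide again above them, and neurons leave the cell cycle and migrate outwards.

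Because no cell annotation was used from outside, cells were gated on unique molecular identifiers (UMIs, the count of captured transcripts) of marker genes, none of them a member. Radial glia-like cells were gated on Pax6, Sox2, Hes5 and Slc1a3, intermediate progenitor-like cells on Eomes, newborn neuron-like cells on Neurod1, migrating neuron-like cells on Unc5d and Sema3c, and deep-layer neuron-like cells on Tle4, Fezf2 and Foxp2. After filtering, 26641 of 35255 barcodes were kept, with median depths of 15162 and 11320 UMIs per cell in i4F-Nes and 15132.5 and 11620.5 in CTR, and the shallower library was replicate 2 in both groups. The gates held 369 to 649 radial glia-like cells per library, 138 to 170 intermediate progenitor-like, 106 to 198 newborn, 420 to 841 migrating and 969 to 1374 deep-layer neuron-like cells, and 48.7% to 60.3% of cells per library were in no gate. Pairs of libraries shared 8 to 19 barcodes among kept cells. The labels call the cells cortical neurons, but progenitors, interneurons (gated on Gad1, Gad2 and Dlx genes), microglia (C1q genes) and endothelial cells were also present by their markers.

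A further pair of gates collected cells by genes that earlier work on these data had found in clusters of the i4F-Nes libraries. The Cytl1 gate (Cytl1, Cd109 and Anxa1) held 385 and 326 cells in i4F-Nes and 0 in either CTR library, and its leading genes included Nanog, Epcam and Sox10. The Crabp2 gate (Crabp2 with Ebf1, Ebf2 and Ebf3) held 299 and 315 cells in i4F-Nes and 4 and 1 in CTR, and its leading genes included Uncx and Krt8. Because their genes were chosen that way, the absence of these cells from CTR is a property of the gates. Median depth was 36123 and 28018 UMIs in the Cytl1 gate and 23435 and 17656 in the Crabp2 gate, above the 15231 and 13901 of their radial glia-like cells, and the part of remaining doublets in this was not tested.

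In the GRCm38 build with GENCODE M21 genes, the members lie at chr7:144929931-144939925 (Ccnd1, minus strand), chr6:127125162-127152193 (Ccnd2, minus), chr17:47505051-47599691 (Ccnd3, plus), chr10:127063534-127067920 (Cdk4, plus), chr5:3341485-3531008 (Cdk6, plus), chr6:134920401-134925513 (Cdkn1b, plus), chr7:143458339-143461050 (Cdkn1c, minus), chr4:89274471-89294653 (Cdkn2a, minus), chr4:109660876-109667189 (Cdkn2c, minus) and chr9:21288410-21291407 (Cdkn2d, minus). Every annotated gene that overlaps a member is on the opposite strand. A member's level is given in CPM, its UMIs summed over the cells of a gate and scaled to the gate's total UMIs in that library. Reads come from transcript ends, so levels are compared across cells within a gene and not between genes.

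RefSeq's promoter table (GRCm38.p6) holds 7 of the 10 members. Their 250 bases upstream of the start were searched on both strands for the E-box CACGTG, the core that Myc and Max bind, for the CCAAT box CCAAT, for the GC box GGGCGG, for the E2F-type words TTTCCCGC, TTTGGCGC, TTTCGCGC and TTTGCCGC, and for the CHR words TTTGAA and TTTAAA. Cdk4 is shown for its 4 E-boxes, lying 172 to 11 bases upstream, against at least 1 in 6.02% of the 32851 promoters and at least 4 in 7 of them (0.0213%). Cdkn1b is shown beside it as a member with no E-box but with 2 CCAAT boxes, 161 and 35 bases upstream, a word found in 33.8% of promoters. Among the other matches, Cdk6 had 1 E-box 220 bases upstream, and Cdkn2d and Ccnd3 each had a CCAAT box. GC boxes (32.7% of promoters) were in every one of these members but Cdk6. A CHR word (25.2%) was found in Cdkn1b alone, and an E2F-type word (1.86%) in Cdkn2a alone. Capitals mark the E-boxes in Cdk4 (chr10:127063285-127063534, plus strand) and the CCAAT boxes in Cdkn1b (chr6:134920151-134920400, plus strand).
Cdk4: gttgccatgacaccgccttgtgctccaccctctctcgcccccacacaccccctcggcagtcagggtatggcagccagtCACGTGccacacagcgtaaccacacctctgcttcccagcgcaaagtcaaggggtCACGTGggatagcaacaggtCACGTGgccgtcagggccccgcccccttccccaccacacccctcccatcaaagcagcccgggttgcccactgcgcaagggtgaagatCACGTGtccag
Cdkn1b: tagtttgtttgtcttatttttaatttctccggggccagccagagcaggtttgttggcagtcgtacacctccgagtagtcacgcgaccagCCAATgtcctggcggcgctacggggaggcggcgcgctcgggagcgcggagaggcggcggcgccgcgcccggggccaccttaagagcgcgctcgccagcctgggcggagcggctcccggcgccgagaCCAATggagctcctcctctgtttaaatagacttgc
A match describes these letters and no binding was measured.

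The first question was how the members change from radial glia to neurons. D cyclins, Cdk6 and the INK4 inhibitor Cdkn2c were progenitor transcripts that dropped at the step into newborn neurons, Cdkn1c rose from radial glia to intermediate progenitors and again to neurons, and Cdk4 and Cdkn1b were still readily detected in neurons. Each step was tested with edgeR's quasi-likelihood test on counts summed per library and gate, with library as a block and Benjamini-Hochberg adjustment over 13600 genes. A total of 9 members passed the low-count filter in these fits, and Cdkn2a did not. Fold changes are log2 values with their standard error.

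Ccnd1, the mitogen-responsive D cyclin, was at 57.8 and 47.9 CPM in i4F-Nes and 66.1 and 69.8 CPM in CTR radial glia-like cells. It reached 143 and 227 CPM in i4F-Nes and 70.7 and 81.5 CPM in CTR intermediate progenitor-like cells. In newborn neuron-like cells it was at 2.15 and 6.11 CPM in i4F-Nes and 3.53 and 1.27 CPM in CTR. All 4 libraries were higher in intermediate progenitors than in radial glia, by a small margin in CTR, and no newborn value came near either progenitor gate. The rise into intermediate progenitors was 0.94 ± 0.27 (edgeR adjusted p = 0.013), and without i4F-Nes replicate 1 it was 0.80 and lost the call (edgeR adjusted p = 0.13). With gates drawn on cells thinned to 3800 UMIs, which let in more cells (388, 202, 376 and 259 intermediate progenitors against 170, 146, 148 and 138), it was −0.09. The drop into newborn neurons was −5.17 ± 0.49 (edgeR adjusted p = 7.7e-07), and −3.58 with those gates.

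Ccnd2, the D cyclin whose transcript is known to be carried to the basal ends of radial glial fibres, did not pass the test between the progenitor gates. It was at 501 and 371 CPM in i4F-Nes and 549 and 517 in CTR radial glia, against 526 and 471 and then 478 and 503 CPM in intermediate progenitors. The ranges overlapped and the fitted difference was −0.00 ± 0.17. It was at 31.8 and 25.2 CPM in i4F-Nes and 72.7 and 30.1 CPM in CTR newborn neurons, a drop of −3.61 ± 0.22 from intermediate progenitors (edgeR adjusted p = 5.5e-09). With gates on thinned UMIs newborn neurons held 116, 76.9, 139 and 99.1 CPM and the drop was −1.89, still called. With each cell thinned to 3800 UMIs, a Ccnd2 UMI was carried by 77.9% and 69.2% of radial glia-like cells in i4F-Nes and by 82.4% and 81.0% in CTR, whereas among newborn neurons the shares were 12.6%, 6.38%, 29.2% and 10.1% in the same order.

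Ccnd3, the D cyclin best known from blood cells, was highest in radial glia among the stages, at 51.9 and 41.3 CPM in i4F-Nes and 56.1 and 37.8 CPM in CTR. It fell by 0.79 ± 0.12 into intermediate progenitors and by 1.81 ± 0.19 into newborn neurons (edgeR adjusted p = 1.5e-05 and 1.9e-08). In deep-layer neurons it was at 15.0, 9.11, 16.2 and 10.7 CPM, above migrating neurons at 12.8, 7.50, 13.3 and 8.85 CPM in every library (i4F-Nes replicates 1 and 2, then CTR replicates 1 and 2). That rise was 0.32 ± 0.12 (edgeR adjusted p = 0.03) and lost the call under 5 alternatives. As the other D cyclins left, Ccnd3 grew from a minor to a sizeable share of all D cyclin UMIs, and in deep-layer neurons it gave 40.5%, 32.8%, 33.1% and 37.7% of them. Ccnd2 gave 80.6% to 82.8% of D cyclin UMIs in radial glia, and Ccnd1 9.46% to 11.2%. These shares describe shifts across gates, since capture differs between genes.

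**Figure D1:**
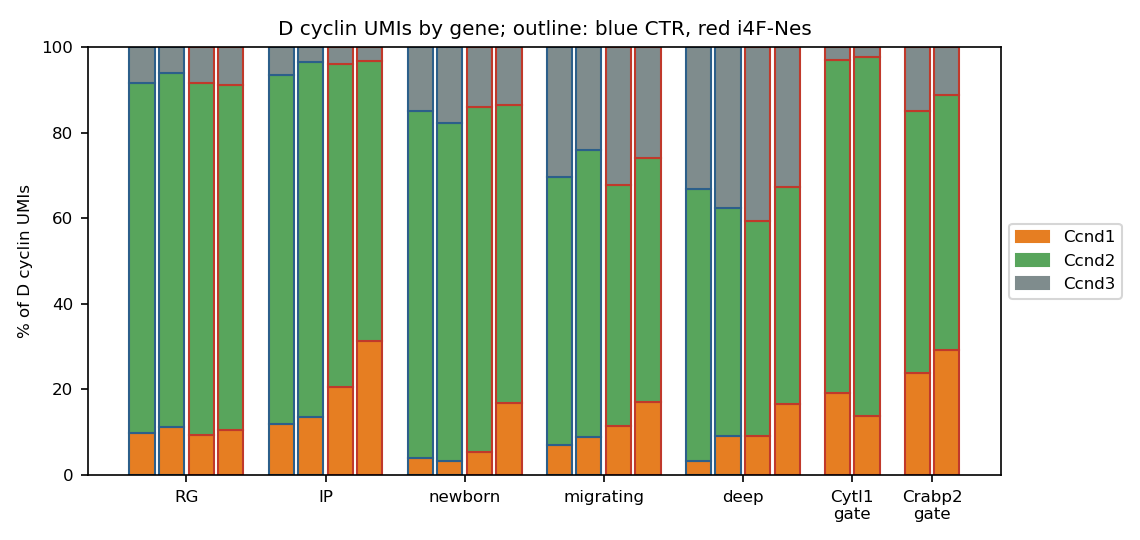
Share of D cyclin UMIs (percent, y axis) given by Ccnd1, Ccnd2 and Ccnd3 in each gate, one stacked bar per library. Ccnd2 makes up 80.6% to 82.8% in radial glia-like cells, Ccnd1 takes 20.6% and 31.4% in i4F-Nes intermediate progenitors against 12.01% and 13.5% in CTR, and Ccnd3 reaches 32.8% to 40.5% in deep-layer neurons.

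The kinases parted ways along the series. Cdk4 was at 666, 571, 808 and 590 CPM in radial glia and 800, 711, 864 and 713 CPM in intermediate progenitors (both i4F-Nes libraries, then both CTR libraries). In newborn neurons it was still at 547, 441, 793 and 523 CPM, and in deep-layer neurons at 334, 222, 437 and 308 CPM. The ranges of neighbouring gates overlapped, while within each library the order was intermediate progenitor, newborn, deep-layer. The fall into newborn neurons was small (−0.32 ± 0.08, edgeR adjusted p = 0.0017) and the fall from migrating to deep-layer neurons somewhat larger (−0.55 ± 0.08, edgeR adjusted p = 4.3e-06). The first of these lost the call without i4F-Nes replicate 1 (edgeR adjusted p = 0.083) and with library left out of the model (edgeR adjusted p = 0.17).

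Cdk6, by contrast, fell to low levels in neurons. It was at 238, 188, 255 and 238 CPM in radial glia and 212, 243, 146 and 213 CPM in intermediate progenitors, overlapping ranges that did not pass the test (−0.27 ± 0.22, and 0.012 with gates on thinned UMIs). Newborn neurons held 27.9, 21.6, 14.1 and 12.3 CPM and deep-layer neurons 1.84, 2.83, 2.44 and 2.51 CPM. The drop was −3.26 ± 0.31 into newborn neurons and −2.13 ± 0.38 from migrating to deep-layer neurons (edgeR adjusted p = 8.1e-07 and 0.00042). With gates on thinned UMIs the first was −1.40, with newborn neurons at 118, 75.4, 63.1 and 61.8 CPM. Of the UMIs of Cdk4 and Cdk6 together, Cdk6 gave 24.0% to 28.8% in radial glia and 0.547% to 1.26% in deep-layer neurons.

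Among the CIP/KIP inhibitors, Cdkn1c had the largest called rise of any member along these gates. It was nearly missing from radial glia, at 2.06 and 2.92 CPM in i4F-Nes and 4.57 and 3.24 CPM in CTR. Intermediate progenitors held 43.6 and 39.7 CPM in i4F-Nes and 32.5 and 32.5 CPM in CTR, and newborn neurons 95.9, 126, 110 and 118 CPM. These 3 gates did not overlap. The rises were 3.48 ± 0.18 and 1.71 ± 0.13 (edgeR adjusted p = 2e-12 and 1.4e-10), and with gates on thinned UMIs they were 4.65 and 0.00. Cdkn1c stayed high afterwards, at 95.3 to 110 CPM in migrating and 104 to 135 CPM in deep-layer neurons, a further 0.28 ± 0.09 (edgeR adjusted p = 0.014) that lost the call under 4 alternatives. Its share of the UMIs of the 5 inhibitors went from 0.746% to 1.99% in radial glia to 47.2% to 51.2% in deep-layer neurons. p57, its product, is known for driving progenitors out of the cycle.

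Cdkn1b was present throughout, and replicate 2 was the higher in both groups in every gate given here. Radial glia held 124 and 189 CPM in i4F-Nes and 96.3 and 158 CPM in CTR, intermediate progenitors 96.4, 154, 86.9 and 145 CPM, and newborn neurons 129, 181, 135 and 159 CPM. The ranges of these gates overlapped, while within each library the level fell into intermediate progenitors and rose into newborn neurons. The fitted changes were −0.29 ± 0.08 into intermediate progenitors and 0.48 ± 0.09 into newborn neurons (edgeR adjusted p = 0.0056 and 3.6e-05). With library left out of the model both calls were lost (edgeR adjusted p = 0.48 and 0.17). The first was also lost without i4F-Nes replicate 1 (edgeR adjusted p = 0.062) and reversed with gates on thinned UMIs (0.11). From migrating to deep-layer neurons Cdkn1b fell by 1.13 ± 0.07 (edgeR adjusted p = 6e-12), to 47.3, 73.7, 45.7 and 73.0 CPM.

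Cdkn2c, which encodes p18, was highest in radial glia among the stages. It was at 70.6 and 67.6 CPM in i4F-Nes and 69.2 and 56.5 CPM in CTR radial glia, at 26.6, 25.6, 12.4 and 18.5 CPM in intermediate progenitors, and at 3.44, 0, 0 and 0.848 CPM in newborn neurons. The 3 gates did not overlap. Mitotic cells (at least 5 UMIs of 6 mitotic genes) made up 59.0% to 61.8% of radial glia and 13.0% to 26.7% of intermediate progenitors. The part of this in the fall between them was not tested. The steps were −1.74 ± 0.31 and −3.99 ± 0.73 (edgeR adjusted p = 0.00047 and 0.0003), and the first had an adjusted p of 0.094 with DESeq2. Since 2 of 4 newborn libraries were at 0, the size of the second depends on the counts the model adds and is no bound; it was −1.99 with gates on thinned UMIs and −5.55 without i4F-Nes replicate 1.

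Cdkn2d, which encodes p19 of the INK4 family, had a dip at intermediate progenitors. It was at 79.1, 77.9, 59.3 and 65.1 CPM in radial glia, 26.6, 17.7, 21.01 and 24.8 CPM in intermediate progenitors, 47.3, 41.5, 45.2 and 49.6 CPM in newborn neurons and 56.6, 52.2, 61.2 and 59.6 CPM in deep-layer neurons. In these gates every library showed the dip, and intermediate progenitors overlapped neither neighbour. Mitotic cells made up 59.0% to 61.8% of radial glia and 13.0% to 26.7% of intermediate progenitors. The part of this in the fall between them was not tested. Cdkn2d fell by 1.68 ± 0.12, then rose by 1.15 ± 0.14, and rose again by 0.59 ± 0.09 from migrating to deep-layer neurons (edgeR adjusted p = 8.7e-11, 1.5e-07 and 5.5e-06). With gates on thinned UMIs the first changes shrank to −0.76 and 0.37, still called, intermediate progenitors (33.2 to 48.7 CPM) overlapped newborn neurons (42.2 to 59.1 CPM), and CTR replicate 2 had no rise between them.

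Cdkn2a, the locus of p16 and of the p53 regulator Arf, which 3′ reads cannot separate, was hardly detected. All kept cells together held 9 and 9 UMIs in i4F-Nes and 7 and 5 in CTR, or 0.0700, 0.115, 0.0723 and 0.0611 CPM, and the exact Poisson 95% intervals of all 4 overlapped (0.0198 to 0.143 in the lowest library and 0.0525 to 0.218 in the highest). No newborn or migrating neuron-like cell in any library carried a UMI, and the exact Poisson upper limit at 0 UMIs was 0.453 CPM in the migrating gate of i4F-Nes replicate 1 (3 UMIs there make 0.368 CPM). The Cytl1 gate held 0 and 2 Cdkn2a UMIs and the Crabp2 gate 4 and 0. Intervals cover counting error only.

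Counted together, 2 members rose and 4 fell from radial glia to intermediate progenitors, where 18.0% of all genes rose and 23.7% fell (41.7% called). From there to newborn neurons 3 rose and 6 fell, where 29.3% of all genes rose and 32.6% fell (61.9% called). The median log2 change of the 9 members was −0.27 at the first step and −1.81 at the second, against −0.04 and −0.04 over all genes tested. Between newborn and migrating neurons edgeR called 0 members, with 1.75% of all genes called. At that step 3 members, and 2289 of all 13600 genes, had an unadjusted p under 0.05. DESeq2 called 1 member and 582 genes in all. From migrating to deep-layer neurons 3 rose and 3 fell, where 24.9% of all genes rose and 20.2% fell (45.1% called), and the members' median was −0.32 against 0.02.

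The wider G1 to S network, a list of 33 further cyclins, kinases, inhibitors, pocket proteins, E2F factors and regulators, had calls in both directions at most steps and mostly falls into newborn neurons. Of 32 genes of that list tested, 8 rose (18.0% of all genes) and 16 fell (23.7% of all genes) into intermediate progenitors, the falls including the mitotic kinase Cdk1 (−1.95 ± 0.34), cyclin A2 (Ccna2, −1.87 ± 0.25) and the pocket protein gene Rbl1 (−1.20 ± 0.17), while E2f1 was among those that rose. Into newborn neurons 1 rose (Bmi1; 29.3% of all genes) and 23 fell (32.6% of all genes), including Cdk2 (−3.94 ± 0.32), Cdk1 (−3.67 ± 0.59) and Ccne1, which encodes cyclin E1 (−3.00 ± 0.33). Only Ambra1, which encodes a factor that targets D cyclins for degradation, passed between newborn and migrating neurons (0.31 ± 0.07, edgeR adjusted p = 0.022). In deep-layer neurons 4 rose and 9 fell against migrating neurons, with E2f7 (3.49 ± 0.27) and Cdk2 (−1.17 ± 0.30) moving furthest in each direction.

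**Figure D2:**
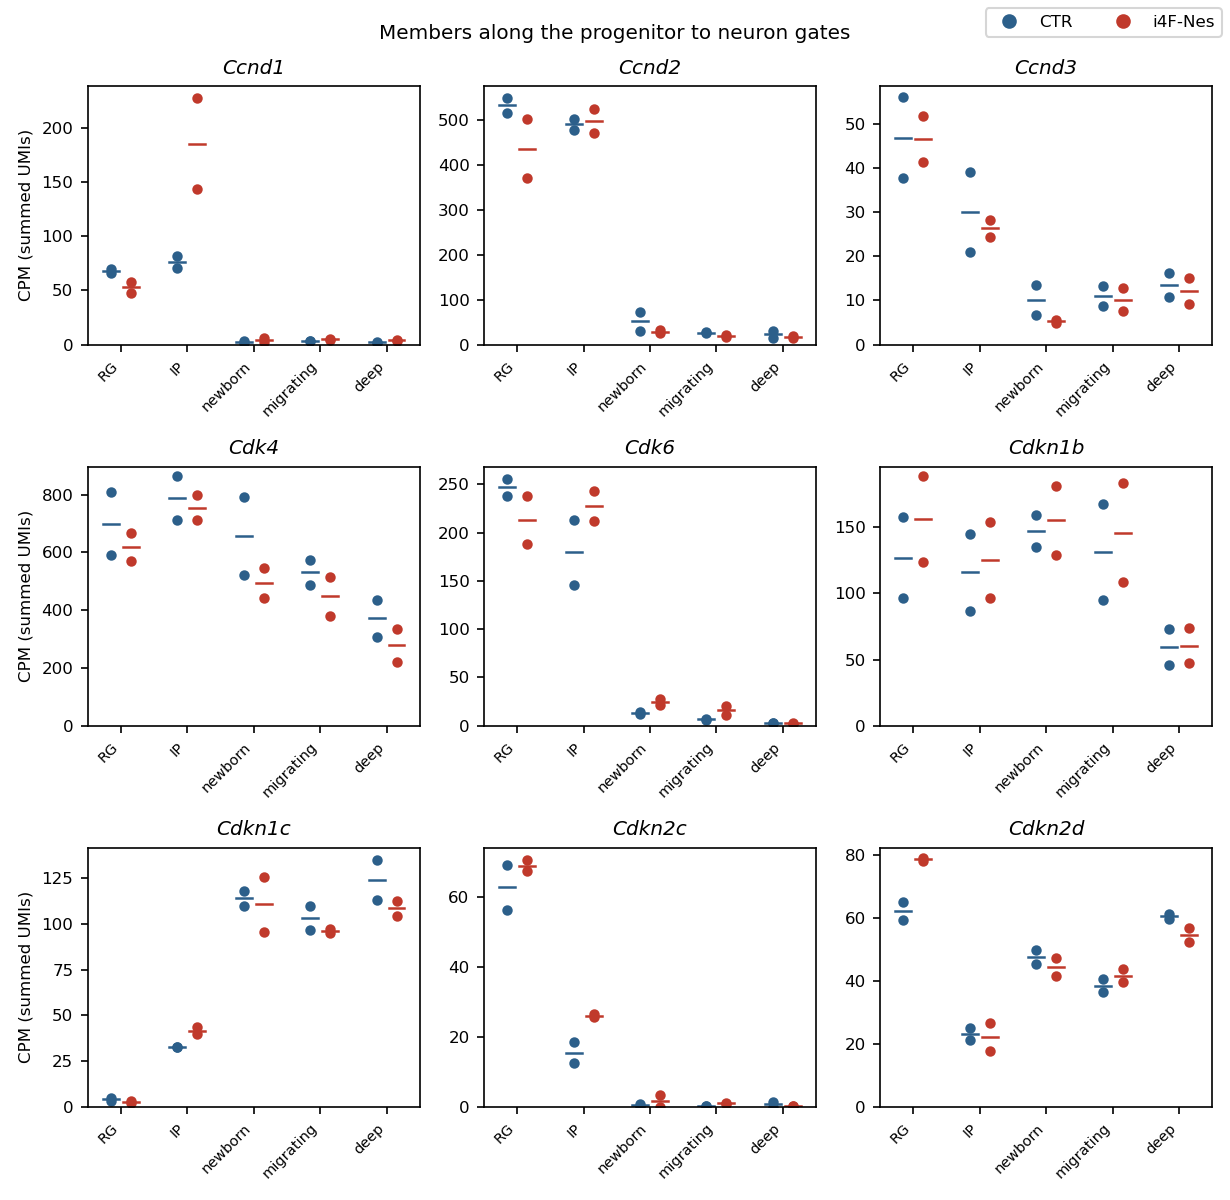
Level of each member (CPM, y axis) in the 5 gates from radial glia-like to deep-layer neuron-like cells (x axis), with one point per library coloured by group and a line at the mean; Cdkn2a is not drawn. Ccnd1, Ccnd2, Ccnd3, Cdk6 and Cdkn2c drop at newborn neurons, Cdkn1c rises from 2.06 to 4.57 CPM in radial glia to 104 to 135 CPM in deep-layer neurons, and Cdkn2d dips to 17.7 to 26.6 CPM in intermediate progenitors.

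Across 9 gates, with both groups pooled by mean and endothelial-like cells left out for their small number, the order of levels differed by member. Ccnd1 was highest in the Cytl1 gate (245 ± 64.7 CPM, SD, n = 2), overlapping intermediate progenitors (131 ± 71.8, n = 4), and then came radial glia (60.4 ± 9.72, n = 4), the Crabp2 gate (60.3 ± 8.91, n = 2) and microglia (45 ± 34.9, n = 4), where the last 3 overlapped. Ccnd2 was highest in the Cytl1 gate (1192 ± 23.6, n = 2), followed by intermediate progenitors (494 ± 24.8) and radial glia (484 ± 78.3), which overlapped. Among the 9 gates microglia-like cells held the top Ccnd3 mean (51.1 ± 24.3, n = 4), overlapping radial glia (46.8 ± 8.64), and the 32 endothelial-like cells of i4F-Nes replicate 2, the library with enough of them for a value, held 106 CPM of Ccnd3 and 198 CPM of Ccnd1. Cdkn1c was lowest in radial glia (3.20 ± 1.04, n = 4) and highest in the Crabp2 gate (159 ± 22.7, n = 2), with interneurons next (121 ± 34.9, n = 4) and overlapping it. The genes whose gate means tracked a member most closely, by Pearson r of log2(CPM + 1) over the 9 gates, were Cdkn3 and Tacc3 for Cdkn2c (r = 1.00 each after rounding), Col2a1 and Gja1 for Ccnd2 (0.99 each), Svil and Kxd1 for Ccnd1 (0.98 each), Creb3l2 and Pvt1 for Ccnd3 (0.99 and 0.98), Ttll7 and Dcx for Cdkn1c (0.98 each), Mtfr1 and Polr2c for Cdk4 (0.98 each), Sec61g and Utp11 for Cdk6 (0.96 each), Palmd and Homer3 for Cdkn1b (0.96 each) and Rnf181 and Cbx8 for Cdkn2d (0.90 and 0.89). The gates share libraries and their depth, and these r values describe likeness alone.

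The second question was how far these levels follow the cell cycle within 1 cell type. Radial glia-like cells were split by UMIs of 6 mitotic genes (such as Mki67 and Top2a) and 8 S phase genes (such as Mcm5 and Pcna), with at least 5 UMIs counted as mitotic and at most 1 of each list as neither. Ccnd1 and Cdkn2c were higher in both cycling subsets, Cdkn2d and Cdk6 rose in mitotic cells and Cdk4 in S phase cells, while Ccnd2 did not pass in either. CTR replicate 1 had 8 cells with neither, under the minimum of 20, and that subset of it was left out. The subset held 29 and 30 cells in i4F-Nes and 30 in CTR replicate 2, against 228 to 383 mitotic cells per library. Low levels in cells with neither therefore rest on few UMIs.

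Cdkn2c was at 94.7 and 86.5 CPM in mitotic radial glia of i4F-Nes and 88.6 and 75.4 CPM in those of CTR, against 0 and 9.56 CPM (i4F-Nes) and 0 CPM (CTR replicate 2) in cells with neither. S phase cells were in between, at 25.5, 25.7, 25.3 and 16.0 CPM, and no subset overlapped another. The fitted rise over cells with neither was 4.93 ± 0.52 in mitotic cells (edgeR adjusted p = 6.4e-10) and 2.99 ± 0.74 in S phase cells (edgeR adjusted p = 0.0046), neither of which is a bound because 2 of 3 reference values were 0. The S phase call was lost under 3 alternatives. Without i4F-Nes replicate 2 the fitted rises were 10.72 and 8.71, against references that were then all at 0.

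Cdkn2d was at 109, 103, 78.1 and 85.1 CPM in mitotic radial glia and at 8.003, 4.78 and 12.8 CPM in cells with neither, a rise of 3.57 ± 0.38 (edgeR adjusted p = 5.5e-10). In S phase cells it was at 19.3, 16.8, 16.4 and 18.1 CPM, so the high level was found in the mitotic subset. Ccnd1 was at 58.6, 44.2, 65.3 and 78.1 CPM in mitotic and 65.3, 73.8, 78.9 and 69.3 CPM in S phase cells, against 28.0 and 14.3 CPM (i4F-Nes) and 8.52 CPM (CTR replicate 2) with neither. Every cycling value exceeded every value with neither, by 1.86 ± 0.38 in mitotic and 2.04 ± 0.39 in S phase cells (edgeR adjusted p = 0.00038 and 0.00027). Without CTR replicate 2 the mitotic call was lost (edgeR adjusted p = 0.057), and with gates on thinned UMIs the rises were 1.00 and 1.16, still called. Without i4F-Nes replicate 1 they were 2.52 and 2.76.

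Ccnd2 was at 514, 370, 538 and 526 CPM in mitotic, 479, 364, 590 and 508 CPM in S phase, and 544, 363 and 473 CPM in cells with neither, which overlapped throughout. The fitted mitotic difference was 0.09. Cdk4 was at 791, 729, 926 and 657 CPM in S phase radial glia and 568, 411 and 477 CPM in cells with neither (0.62 ± 0.14, edgeR adjusted p = 0.0022), without overlap, a call lost without CTR replicate 2 (edgeR adjusted p = 0.088). In mitotic cells it was at 628, 550, 778 and 597 CPM, overlapping the 568 CPM (0.35, edgeR adjusted p = 0.077). Cdk6 rose by 0.46 ± 0.17 in mitotic cells (edgeR adjusted p = 0.044), a call lost under 4 alternatives. In all, 4 of 8 members tested rose and 0 fell in mitotic cells, where 11.3% of all genes rose and 7.43% fell (18.7% called). In S phase cells 3 rose and 0 fell, where 6.81% of all genes rose and 5.07% fell (11.9% called). Without CTR replicate 2, 2 and 1 members were called, and with gates on thinned UMIs 7 in mitotic cells and 7 in S phase cells, of which 6 rose and 1 fell. The share of all genes called under these settings is not set beside these counts, which describe the members alone. Within the network list, 14 of 30 rose in mitotic cells, led in size by E2f8, Ccna2 (7.67 ± 0.42) and Cdk1 (6.38 ± 0.31), and 12 rose in S phase cells, among them Ccne2 (3.18 ± 0.71) and E2f1 (2.16 ± 0.32), while Mycn fell.

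**Figure D3:**
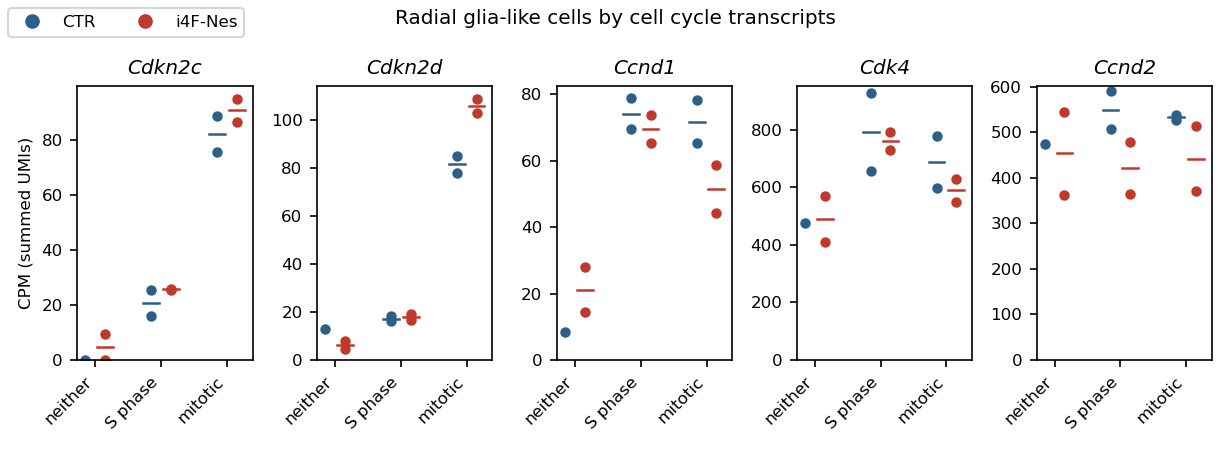
Level of Cdkn2c, Cdkn2d, Ccnd1, Cdk4 and Ccnd2 (CPM, y axis) in radial glia-like cells with mitotic transcripts, S phase transcripts or neither (x axis), with one point per library coloured by group and a line at the mean of 2. Cdkn2c and Cdkn2d are highest in mitotic cells (75.4 to 94.7 and 78.1 to 109 CPM), Ccnd1 is lowest in cells with neither (8.52 to 28.0 CPM), and Ccnd2 overlaps across the 3 subsets.

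The third question was where the Cytl1-gate and Crabp2-gate cells stand among these levels, and it was tested within the 2 i4F-Nes libraries. Cytl1-gate cells had more Ccnd1, Ccnd2 and Cdkn1c and less Cdk6, Cdkn2c and Cdkn1b than radial glia-like cells of these libraries. Crabp2-gate cells had more of all 3 D cyclins and of Cdkn1c, and less Cdk6, than newborn neuron-like cells.

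Ccnd1 was at 291 and 199 CPM in the Cytl1 gate against 57.8 and 47.9 CPM in radial glia. Ccnd2 was at 1175 and 1208 CPM against 501 and 371 CPM. In neither case did the gates overlap, and the rises were 2.27 ± 0.19 and 1.55 ± 0.16 (edgeR adjusted p = 3.4e-05 and 5.9e-05). This gate held 12.04% and 12.4% of all UMIs of the i4F-Nes libraries but 59.4% and 47.5% of their Ccnd1 UMIs and 49.2% and 56.2% of their Ccnd2 UMIs. Thinned to 3800 UMIs, 60.5% and 39.9% of its cells carried a Ccnd1 UMI (96.4% and 87.1% unthinned), against 1.54% and 1.71% of deep-layer neurons in the same libraries, whose median depth was 16677 and 12117 UMIs. Among intermediate progenitors of these libraries the thinned shares were 27.8% and 43.0%, which overlapped those of the Cytl1 gate.

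Cdkn1c was at 26.0 and 24.4 CPM in the Cytl1 gate, above radial glia at 2.06 and 2.92 CPM and below intermediate progenitors at 43.6 and 39.7 CPM. The rise over radial glia was 3.46 ± 0.21 (edgeR adjusted p = 1.4e-06), and 2.52 with gates on thinned UMIs. Cdk6 was at 28.6 and 37.2 CPM against 238 and 188 CPM in radial glia (−2.62 ± 0.23, edgeR adjusted p = 0.00011). Newborn neurons of these libraries held 27.9 and 21.6 CPM. Cdk4 was at 594 and 530 CPM, and its range overlapped that of radial glia at 666 and 571 CPM.

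Cdkn2c was at 28.4 and 39.3 CPM in the Cytl1 gate and 70.6 and 67.6 CPM in radial glia (−0.98 ± 0.27, edgeR adjusted p = 0.026; DESeq2 adjusted p = 0.19). Cdkn1b was at 78.0 and 138 CPM against 124 and 189 CPM, overlapping ranges in which each library was lower (−0.49 ± 0.12, edgeR adjusted p = 0.0088). That call was lost with library left out of the model (edgeR adjusted p = 0.45). Mitotic cells made up 79.2% and 61.7% of the Cytl1 gate and 59.0% and 61.3% of radial glia, so the shares differed in replicate 1 and were alike in replicate 2. The mark counts raw UMIs, and median depth was 36123 and 28018 UMIs in the Cytl1 gate against 15231 and 13901. The part of depth in these shares was not tested. With only mitotic cells of both gates, a restriction chosen after seeing the data, Ccnd1 (2.30), Ccnd2 (1.52), Cdk6 (−2.52) and Cdkn2c (−1.07) had nearly the same fold changes.

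In the Crabp2 gate, Ccnd1 was at 66.6 and 54.0 CPM against 2.15 and 6.11 CPM in newborn neurons (3.77 ± 0.32, edgeR adjusted p = 6.8e-05). Ccnd3 was at 41.8 and 20.5 CPM against 5.59 and 4.89 CPM (2.48 ± 0.29, edgeR adjusted p = 0.00019). Ccnd2 was at 170 and 110 CPM against 31.8 and 25.2 CPM (2.21 ± 0.19, edgeR adjusted p = 3.5e-05). No D cyclin overlapped between the gates. With gates drawn on thinned UMIs the Ccnd2 call did not hold (−0.03) and the Ccnd1 rise was 2.95. Ccnd2 was then at 137 and 59.1 CPM in the Crabp2 gate. The newborn reference, which holds other cells under thinning, was at 116 and 76.9 CPM. In the other direction, Cdk6 was at 10.1 and 5.40 CPM against 27.9 and 21.6 CPM (−1.71 ± 0.34, edgeR adjusted p = 0.0072), and the change was −4.99 with thinned gates. Cdkn1c was at 143 and 175 CPM against 95.9 and 126 CPM (0.45 ± 0.14, edgeR adjusted p = 0.027), a call lost under 3 alternatives. D cyclin transcripts and Cdkn1c were thus both present in this gate, of which 15.4% and 2.86% of cells were mitotic and 10.0% and 4.76% in S phase. Newborn neurons of these libraries held 1.14% and 0% mitotic and 1.14% and 1.01% S phase cells. The part of cycling cells in the D cyclin rises was not tested. Cells with a UMI of both Ccnd2 and Cdkn1c after thinning made up 4.04% and 4.61% of the Crabp2 gate, against 5.08% and 3.14% from the product of the separate shares. For Ccnd1 with Ccnd2 the values were 4.38% and 4.93%, against 1.83% and 1.51%.

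Of 9 members tested, 3 rose and 3 fell in the Cytl1 gate against radial glia, where 21.2% of all genes rose and 18.0% fell (39.2% called). In the Crabp2 gate 4 rose and 1 fell against newborn neurons, where 19.5% of all genes rose and 14.4% fell (33.9% called). The members' medians were −0.14 and 0.47 against 0.01 and 0.05 over all genes. From the network list, Cdkn1a, which encodes p21, the CIP/KIP inhibitor outside the 10 members, rose in both comparisons (5.00 ± 0.32 and 7.44 ± 0.40, edgeR adjusted p = 2.9e-05 and 2.1e-05), and Mycn fell in both (−1.79 ± 0.15 and −1.76 ± 0.16). In all 2 of 32 rose and 4 fell in the Cytl1 gate, and 9 of 32 rose and 2 fell in the Crabp2 gate, including rises of Ccne2 (2.99 ± 0.56), Cdk2 (2.65 ± 0.49) and E2f1 (2.19 ± 0.20). With 2 i4F-Nes libraries, these tests rest on the spread over 8 sums.

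**Figure D4:**
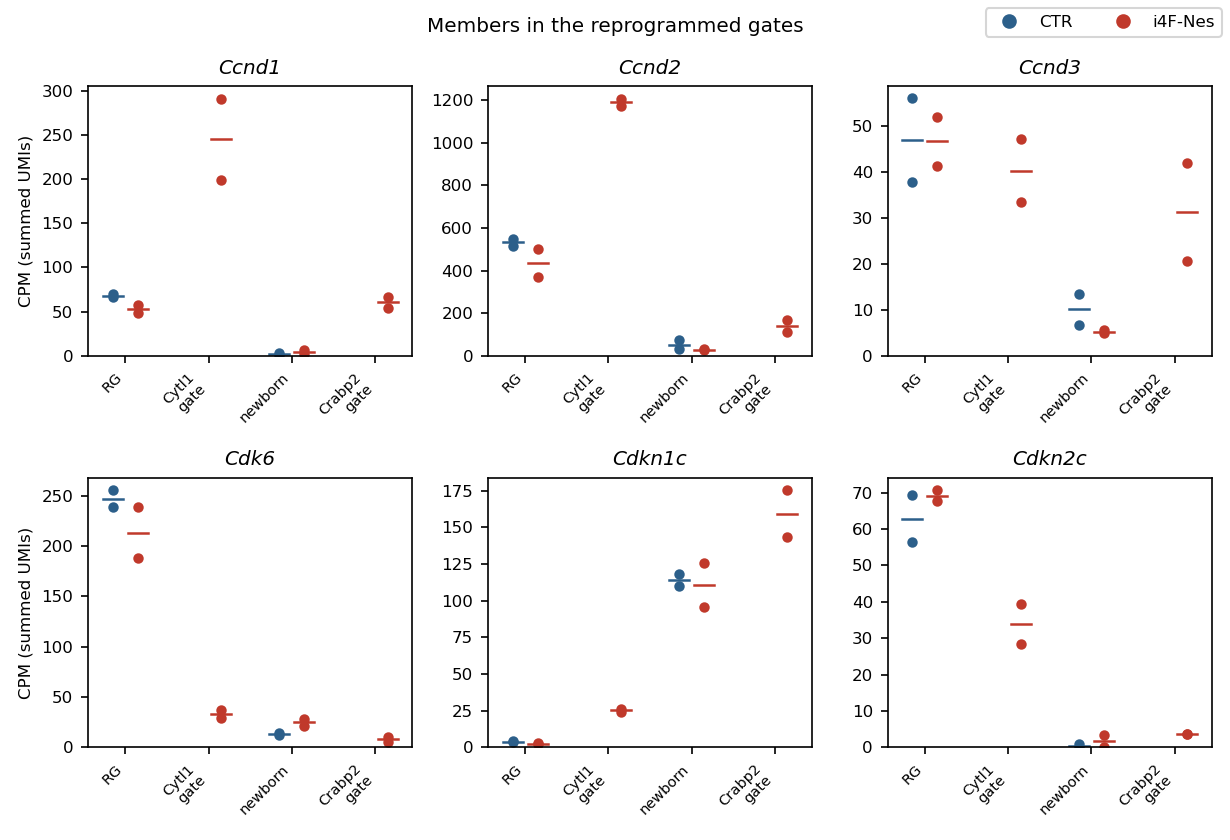
Level of 6 members (CPM, y axis) in radial glia-like (RG), Cytl1-gate, newborn neuron-like and Crabp2-gate cells (x axis), with one point per library, a line at the mean and the group by colour; the CTR libraries have no point in the last gates named for Cytl1 and Crabp2. Ccnd2 stands at 1175 and 1208 CPM in the Cytl1 gate compared with 501 and 371 CPM in RG, while Cdk6 is at 28.6 and 37.2 against 238 and 188 CPM.

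The last question was the contrast of the labels, i4F-Nes against CTR. Over all kept cells, Ccnd1 was the member called by edgeR and was higher in i4F-Nes. With the Cytl1 and Crabp2 gates removed no member was called, and none was called within any stage gate. Within intermediate progenitors Ccnd1 was higher in both i4F-Nes libraries, by an amount that passed the threshold under some settings and not in the edgeR fit used throughout.

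Over all kept cells Ccnd1 was at 58.9 and 52.2 CPM in i4F-Nes (55.5 ± 4.79, SD, n = 2) and 15.4 and 11.3 CPM in CTR (13.4 ± 2.92, n = 2), and the groups did not overlap. The difference was 1.97 ± 0.19 (edgeR adjusted p = 0.018) and it was called in all 8 alternatives, with 1.78 to 2.20. Ccnd2 was at 287 and 267 CPM against 170 and 113 CPM, also without overlap, but did not pass (0.88 ± 0.21, edgeR adjusted p = 0.14). Thus 1 of 9 members was called higher and 0 lower, with 2.18% of all genes called, and the members' median was 0.03 against −0.02 over all genes. Cdk4 was at 542 and 436 CPM in i4F-Nes and 682 and 474 CPM in CTR, and Cdk6, Ccnd3, Cdkn1b and Cdkn1c overlapped between the groups as it did. Cdkn2c (13.9 and 14.2 CPM against 12.6 and 7.43) and Cdkn2d (52.2 and 54.3 CPM against 51.6 and 51.3) did not overlap, by small margins that did not pass. Of the network list 1 of 33 was called, Cdkn1a, at 38.8 and 38.0 CPM in i4F-Nes against 2.45 and 2.33 CPM in CTR (3.91 ± 0.16, edgeR adjusted p = 0.0047). In whole-tissue sums, more cells of a type and more RNA per cell cannot be told apart, which is why the sums were repeated by gate.

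Without the cells of the Cytl1 and Crabp2 gates, Ccnd1 was at 24.3 and 29.3 CPM in i4F-Nes and 15.4 and 11.3 CPM in CTR, a gap of 0.95 ± 0.21 that did not pass (edgeR adjusted p = 0.70). Leaving out in addition every cell with over 1 UMI of the markers of those gates, a step chosen after seeing the data, brought i4F-Nes to 16.9 and 20.9 CPM and the gap to 0.46. Ccnd2 was at 166 and 136 CPM against 170 and 113 CPM once the gates were removed, overlapping (0.04 ± 0.22), a difference whose sign changed when some single libraries were left out. In this comparison edgeR called 0 of 18212 genes (0% of all genes), and 1 member and 618 of all genes had an unadjusted p under 0.05. DESeq2 called 1 member and 124 genes in all.

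Among intermediate progenitor-like cells, Ccnd1 at 143 and 227 CPM in i4F-Nes (185 ± 59.2, SD, n = 2) lay above CTR at 70.7 and 81.5 CPM (76.1 ± 7.65, n = 2), with no overlap. The fitted difference was 1.28 ± 0.24 with an unadjusted p of 0.00037 and an edgeR adjusted p of 0.46. It passed without a low-count filter (1.27, edgeR adjusted p = 4.0e-08), without CTR replicate 1 (1.15, 0.0064), without CTR replicate 2 (1.42, 3.4e-05) and without i4F-Nes replicate 1 (1.60, 0.0016), but not without i4F-Nes replicate 2 (0.88, 0.25) or with DESeq2 (1.28, 0.10). After thinning, a Ccnd1 UMI was found in 27.8% and 43.0% of the gate's cells in i4F-Nes and in 15.3% and 20% in CTR (54.1% and 54.1%, 36.5% and 31.9% unthinned), against 0.559% to 1.89% of newborn neurons.

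Several other properties of this gate moved with the groups. Mitotic cells were 24.7% and 26.7% of it in i4F-Nes and 14.2% and 13.0% in CTR, while cells with neither mark were 23.5%, 37.0%, 29.7% and 55.8% in the same order. Summed pluripotency markers were at 9.97 and 14.6 CPM in i4F-Nes and 3.82 and 5.09 CPM in CTR, and Cajal-Retzius markers were at 483 CPM in CTR replicate 2 against 4.15 to 7.32 CPM in the other 3 libraries. Among mitotic cells alone, Ccnd1 was at 218 and 250 CPM in i4F-Nes and 114 CPM in CTR replicate 1. In S phase cells it was at 168 and 425 CPM against 114 CPM, and in cells with neither at 105 and 47.7 CPM against 48.6 and 66.2 CPM, which overlap. CTR replicate 2 had under 20 cells in both cycling subsets and gave no value. With no marker UMI of the Cytl1 or Crabp2 gate allowed, a filter added after seeing the data, the difference was 1.37 (edgeR adjusted p = 0.91). The part of the cycle state and of the pluripotency and Cajal-Retzius markers in the Ccnd1 difference was not tested beyond these values.

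In the same gate Cdkn2c was at 26.6 and 25.6 CPM in i4F-Nes and 12.4 and 18.5 CPM in CTR (0.77 ± 0.30, edgeR adjusted p = 0.87). Thus edgeR called 0 members in intermediate progenitors, with 0% of 10668 genes called, and DESeq2 called 0 members and 0 of all genes. An unadjusted p under 0.05 was found for 2 members and for 554 of the 10668 genes. The test of the difference itself, between the groups' steps from radial glia to intermediate progenitors, called 0 members with 0.418% of all genes called. Its fitted Ccnd1 term was 1.63 ± 0.31 (unadjusted p = 0.0021, edgeR adjusted p = 0.15), and DESeq2 called that 1 member (1.62, DESeq2 adjusted p = 0.00091). With edgeR 4 members had an unadjusted p under 0.05, as had 1200 of all 12440 genes. For the step into newborn neurons edgeR called 0 members, with 0.0342% of all genes called, and DESeq2 called 0 members. There 1 member, and 482 of all 11682 genes, had an unadjusted p under 0.05.

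In radial glia, Ccnd1 lay the other way, at 57.8 and 47.9 CPM in i4F-Nes and 66.1 and 69.8 CPM in CTR without overlap (−0.38 ± 0.15, edgeR adjusted p = 0.94). Mitotic shares were alike there, at 59.0%, 61.3%, 61.3% and 61.8%. edgeR called 0 members in this gate, with 0% of 12955 genes called, and 1 member and 599 of all genes had an unadjusted p under 0.05. DESeq2 called 0 members and 17 genes in all.

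Cdk6 was higher in i4F-Nes among newborn neurons, at 27.9 and 21.6 CPM against 14.1 and 12.3 CPM (0.88 ± 0.31, edgeR adjusted p = 1.00), and among migrating neurons, at 11.2 and 20.4 CPM against 6.07 and 7.14 CPM (1.2 ± 0.34, edgeR adjusted p = 1.00). The groups did not overlap in either gate, and neither gap passed in these fits; the gap in migrating neurons passed with no low-count filter. In newborn neurons edgeR called 0 of 7 members tested, with 0.00959% of all genes called, and DESeq2 called 0 members and 1 gene in all. An unadjusted p under 0.05 was found for 1 member and for 185 of 10428 genes. In migrating neurons edgeR called 0 of 8, with 0.00822% of all genes called, and DESeq2 called 0 members and 4 genes in all. Here 1 member, and 281 of 12170 genes, had an unadjusted p under 0.05.

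In deep-layer neurons edgeR called 0 of 8 members, with 0% of 14188 genes called, and DESeq2 called 0 members and 0 of all genes. An unadjusted p under 0.05 was found for 0 members and for 134 of all genes. Cdkn1c there was at 104 and 113 CPM in i4F-Nes and 113 and 135 CPM in CTR. In interneuron-like cells Ccnd2 was at 56.6 and 62.0 CPM against 35.2 and 32.9 CPM, without overlap (0.80 ± 0.26, edgeR adjusted p = 0.98). These levels rest on few cells. Before thinning, only 6.35% and 3.26% of 126 and 92 cells in i4F-Nes carried a UMI of it. In CTR it was 3.57% and 5.79% of 196 and 380 cells, and the shares overlapped between the groups. edgeR called 0 of 8 members in that gate, with 0% of 9699 genes called, and 1 member and 345 of all genes had an unadjusted p under 0.05. DESeq2 called 0 members and 3 genes in all. Microglia-like cells, 30 to 44 per library, were described by levels alone. Ccnd1 was at 13.1 and 94.6 CPM in i4F-Nes, on both sides of CTR at 32.5 and 39.8 CPM, and Cdk6 was at 62.3 and 50.1 CPM, below CTR at 85.2 and 127 CPM.

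**Figure D5:**
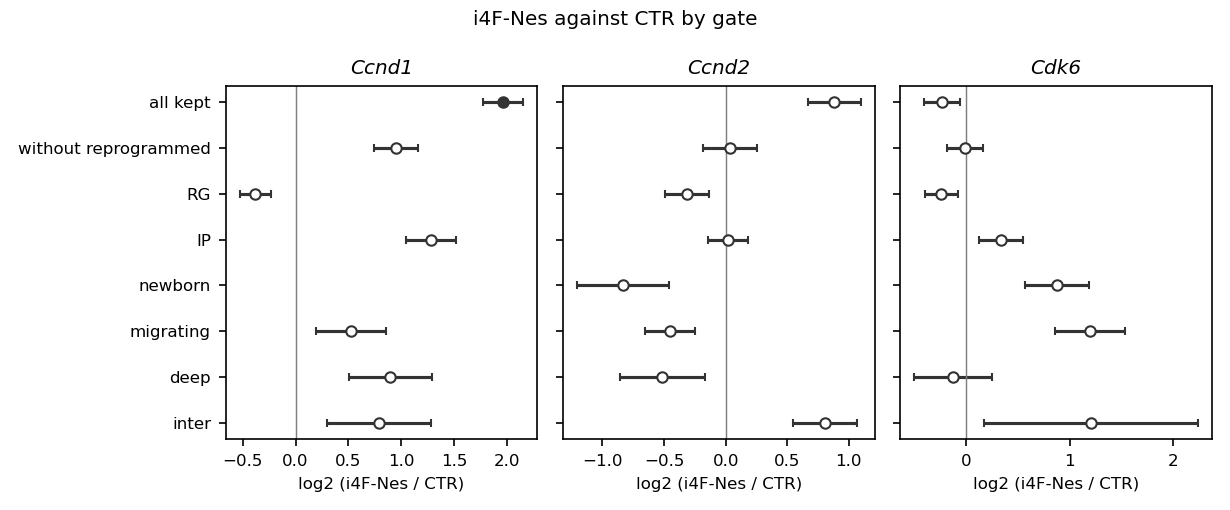
Fitted log2 change of i4F-Nes over CTR (x axis, horizontal bars are standard errors) for Ccnd1, Ccnd2 and Cdk6 in all kept cells, in all cells without the Cytl1 and Crabp2 gates (without reprogrammed), and in single gates (y axis; RG, radial glia-like; IP, intermediate progenitor-like; inter, interneuron-like). Filled points passed the adjusted threshold of 0.05. Ccnd1 over all kept cells (1.97) is the filled point, and Ccnd1 lies at 1.28 in IP and −0.38 in RG.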

How the data were processed

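Cells were sequenced with 10x Genomics 3′ v3.1 chemistry. The deposited matrices hold UMI counts per gene and barcode made by the authors with cellranger 7.0.1, per the file headers, with mm10 as the build named by the submitters' processing notes; which annotation release was used and whether intronic reads were counted is not given in the sources used here. Of 35255 barcodes (458145772 UMIs), those with at least 1000 UMIs, at least 500 genes and at most 10% mitochondrial UMIs were kept (28672), and the highest Scrublet scores, 0.8% of a library per 1000 barcodes, were removed as doublets (2031), leaving 26641 cells (6046 to 7498 per library) with 385509235 UMIs. Cells were classed by marker UMIs, not by the authors' annotation. Counts were summed per library and gate, with at least 20 cells, filtered with filterByExpr, scaled by TMM and tested with edgeR 4.0.16 (quasi-likelihood, robust), with adjusted p under 0.05 as the threshold; fold changes are TMM-scaled, printed CPM are not. DESeq2 1.42.0, no low-count filter, the replicate or library block, leaving out each library, no doublet removal and gates on cells thinned to 3800 UMIs were alternatives. The scripts (Python 3.11.15, scanpy 1.11.5, R 4.3.3) were tested on simulated data. Shares have exact binomial and Cdkn2a levels exact Poisson 95% intervals, which cover counting error only. All 10 members are named, with up to 6 genes per comparison from the network list of 33 and 2 genes of like pattern per member. The members, gates and lists were chosen with earlier results of these data known. Endothelial-like cells, 3 to 32 per library, were not tested.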

Additional observations from a re-analysis of the deposited data

Results flagged for a closer look

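In 10 cases, among members that reached 10 CPM in a library of the gate, both i4F-Nes libraries lay on one side of both CTR libraries within a gate while another gate had the opposite arrangement for the same gene; with 2 libraries per group the difference between gates was not tested. Ccnd1 had the same arrangement between radial glia-like and intermediate progenitor-like cells, where the difference was tested and passed with DESeq2 but not with edgeR (edgeR adjusted p = 0.15), and is not counted. How many of all genes had such arrangements was not counted, so the number of cases is no result about the members. The values are ratios of the i4F-Nes mean to the CTR mean. Ccnd2 was at 1.74 in interneuron-like cells, few of which carried a UMI of it, but at 0.818 in radial glia-like and 0.743 in migrating neuron-like cells. Cdk6 was at 1.88 in newborn and 2.39 in migrating neuron-like cells and at 0.863 in radial glia-like cells. Cdkn1c was at 1.28 in intermediate progenitor-like cells, where mitotic cells were also more frequent in i4F-Nes, and at 0.874 in deep-layer neuron-like cells. Cdkn2d was at 1.26 in radial glia-like and 0.901 in deep-layer neuron-like cells. None of these group differences passed in the edgeR fits of the report within its gate, but Cdk6 and Ccnd2 in migrating neuron-like cells passed with the replicate block (edgeR adjusted p = 1.0e-06 and 0.040).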

How the results depend on the processing

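Precision is limited by 2 libraries per group and by gates of 106 to 198 cells for intermediate progenitor-like and newborn neuron-like cells. Of the members' fold changes with an unadjusted p under 0.05 and 5 others, recomputed under each alternative, 455 values kept direction and side of the threshold, 33 gained a call, 33 lost one and 10 changed sign. Over all 155 combinations of a tested member and a comparison, 52 changed sign under at least 1 alternative, 3 of them among the 40 called. The 10 values were Ccnd2 from radial glia to intermediate progenitors (−0.00, and 0.016 with DESeq2, −0.097 to 0.062 when 1 library was left out), Ccnd2 without the Cytl1 and Crabp2 gates (0.04, and −0.21 to 0.34 when 1 library was left out, −0.25 with at most 1 marker UMI in every cell), and, with gates on thinned UMIs, Ccnd1 (−0.095), Cdkn1b (0.11) and Cdk6 (0.012) at the first step and Ccnd2 in the Crabp2 gate against newborn neurons (−0.026); the thinned gates hold other cells by construction.

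For i4F-Nes against CTR, the count of members called over all kept cells went from 1 to 2 with DESeq2 and with the replicate block (Ccnd2 0.91, edgeR adjusted p = 0.048), and was 1 to 2 when 1 library was left out. Without the Cytl1 and Crabp2 gates it went from 0 to 1 with DESeq2 and with thinned gates. Under thinning the i4F-Nes libraries had 97 and 72 cells in the Cytl1 gate against 385 and 326. Their Crabp2 gate had 215 and 203 against 299 and 315. Most Cytl1-gate cells thus stayed in the thinned sum, which is not a sum without them. It went from 0 to 1 in intermediate progenitors with no low-count filter and with the replicate block (Ccnd1 1.24, edgeR adjusted p = 3.5e-07), to 1 in newborn (Ccnd2 −0.79, 0.018) and deep-layer neurons (Cdk4 −0.45, 0.016) with the replicate block, and in migrating neurons to 1 with no filter and 2 with the block (Cdk6 1.22 and Ccnd2 −0.47, edgeR adjusted p = 1.0e-06 and 0.040). Leaving out 1 library gave 0 to 1 in intermediate progenitors, in newborn neurons (without CTR replicate 2, Ccnd2 −1.34) and in interneurons (without i4F-Nes replicate 1, Cdk6 2.23). Libraries with the same replicate number deviated together (correlations of 0.17 to 0.48 over gates), but the labels do not say that the number marks a shared litter or day, so the pairing was not adopted.

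From newborn to migrating neurons the count went from 0 to 1 with DESeq2 and 4 with thinned gates. In radial glia, 4 mitotic calls became 7 and 3 S phase calls became 7 with thinned gates; leaving out 1 library gave 2 to 4 and 1 to 4. The tests of the difference between the groups' steps gave 1 with DESeq2, 2 with no filter and 0 to 2 without 1 library for the first step, and 0 to 1 without 1 library for the second (without CTR replicate 2, Ccnd2 −1.45). In this section the share of all genes called under each setting is not set beside the counts of members, and the causes were not tested. The other 130 counts stayed within 1.5 times. Shares of cells with a UMI moved between thinned and unthinned cells in 87 of 100 cases.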
